A study of Arabidopsis thaliana with 12 samples.

Results

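Translational efficiency, the ribosome-protected fragments (RPF) of a gene relative to its total RNA, was compared between low and high light in rosettes of Arabidopsis thaliana for the nuclear protein-coding genes with the deepest counts. A gene was a member when all 12 libraries held at least 50 counts for it, which left 1745 of 26698 nuclear protein-coding genes and of 28775 genes in all. The measure was the shift, meaning the log2 change of RPF from low to high light minus the log2 change of total RNA. A shift of 1 is a gain by a factor of 2 in RPF per total RNA. All plants were of genotype Col-0 and 3 weeks old when they were moved to dim light of 8 µmol photons per square metre and second for 10 days. Low-light (LL) controls stayed there, and high-light (HL) plants then spent 10 min at 800 µmol photons per square metre and second. RPF and total RNA were each sequenced from whole rosettes of 3 biological replicates per light condition, which gave 4 groups of 3 libraries, and libraries of the same number formed pair 1, 2 or 3. The title of the study names plastid signals that act on cytosolic translation of plastid proteins during high-light acclimation, and the comparison asks which transcripts gained or lost ribosomes beyond their change in amount.

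A ribosome shields a short stretch of mRNA from nuclease, so the shielded fragments of a gene follow how many ribosomes sit on its transcripts, while total RNA follows how many transcripts there are. Leaves can change translation faster than transcript amounts when light changes, because ribosomes can be loaded onto mRNAs that are already present. Most chloroplast proteins, among them the light-harvesting antenna and the enzymes of carbon fixation, are encoded in the nucleus, translated in the cytosol and imported. The extracts held cycloheximide, chloramphenicol and lincomycin, which stop cytosolic and plastid ribosomes.

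Depth over nuclear protein-coding genes ranged from 538115 to 1215991 counts in the RPF libraries and from 830690 to 4399943 in those of total RNA, of which the members held 53.4% to 62.5%. Over all genes, the RPF libraries of number 1 held 15151983 (LL) and 17312840 (HL) counts, with 2117195 and 2111154 in protein-coding genes. RPF libraries of numbers 2 and 3 held 1563427 to 2304228, with 1161026 to 1873462 in protein-coding genes. The part of this difference in the values of pair 1 was not tested. Of the genes outside the rule, 1573 failed only in RPF libraries, 93 only in total RNA libraries and 23287 in both, so RPF alone removed more genes than total RNA alone. The mesophyll markers RBCS1A, CAB1 and RCA had at least 2832 counts in every library. Among markers of other leaf cells, those of the epidermis CUT1 (KCS6), ATML1 and FDH (KCS10), of phloem companion cells SUC2 and of myrosin cells TGG1 and TGG2 were members. The guard cell markers KAT1 and MYB60, with as few as 7 and 1 counts, were not. Nor were PDF1 of the epidermis and PP2-A1 and APL of the phloem, with as few as 39, 29 and 6 counts. Rosettes are mixtures, and fewer cells of a type and less RNA per cell cannot be told apart here.

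Members leaned to a higher translational efficiency after 10 min of high light, and antenna genes led the higher side. The lean came with nearly level RPF and lower scaled total RNA. Over members the median change was -0.01 in RPF and -0.09 in total RNA, against -0.004 and 0.001 over all tested genes. The median shift over members was 0.09 (25th and 75th percentiles -0.05 and 0.23), and 1170 members, 67.0%, had a positive shift, against 51.1% of the 12782 genes tested. No member passed a Benjamini-Hochberg adjusted p of 0.05 in edgeR's quasi-likelihood test in either direction (0 higher and 0 lower, also 0% of all tested genes each way). At an unadjusted p under 0.05, 66 members were higher and 7 were lower (3.78% and 0.401%), against 2.4% and 1.74% of all tested genes. DESeq2 and limma-voom, with the same pairs, each called 3 members higher (0.0313% of all tested genes for both) and 0 lower (0% and 0.0156%), in both cases the antenna genes LHB1B1, CAB2 and CAB3. LHB1B1 and CAB2 were called by edgeR with nuclear genes only (0.0147%) or with no filter on low counts (0.0177%), and LHB1B1 with members only (0.0573%) or without the total RNA library of number 3 in HL (0.0153%) or in LL (0.0151%). The lean is relative to the genes used for scaling: with members alone in the fit their median shift was 0.00 and 50.3% were positive. Without the total RNA library of number 1 in low or in high light the median was 0.04, and without that of number 2 in either light it was 0.14.

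Agreement over the 3 pairs had the same lean. The shift was higher in all 3 pairs for 442 members (25.3%) and lower in all 3 for 113 (6.48%), whereas 14.1% and 12.7% of all tested genes were higher or lower in all 3. The remaining 1190 members changed sign between pairs. When each pair was centred on the median of the members, 244 were higher and 246 lower in all 3 pairs. Most shifts were small: 1678 members lay within 0.5 of 0, 61 were above 0.5 and 6 below -0.5. The 15 members above 0.7 included 8 antenna genes, and the 4 above 1 were all antenna genes.

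Antenna genes, whose proteins bind chlorophyll and pass light energy to the photosystems, stood highest of the 27 functional lists. Of its 21 genes 18 were members, all 18 had a positive shift and 17 were higher in all 3 pairs. The median shift was 0.43, with medians of 0.51, 0.27 and 0.61 in pairs 1, 2 and 3. RPF and total RNA differed in sign: the median change was 0.30 in RPF, positive for 18 of 18 (49.6% of all tested genes), and -0.15 in total RNA, positive for 1 of 18 (50.1%). Medians over all members were -0.01 in RPF and -0.09 in total RNA, so scaled total RNA was also lower over the members as a whole. Centred on the members, 14 of the 18 were higher in all 3 pairs, against 14.0% of all members. Near-identical copies, such as CAB1, CAB2 and CAB3, can share reads, so the split of counts between copies is uncertain.

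The major trimeric antenna of photosystem II (LHCII) held the 4 largest shifts, all of them in genes for its Lhcb1 subunit. LHB1B1 (chromosome 2, 14524756 to 14525763 in TAIR10) had 1138, 851 and 1806 CPM (counts scaled to a common library size) in RPF under LL and 2392, 1470.4 and 3835 under HL. In total RNA it had 2137, 1955 and 3208 CPM under LL and 1802, 1478 and 2969 under HL. RPF was higher and total RNA lower in high light within each of the 3 pairs, although the groups overlapped. Its shift was 1.24 ± 0.27 (SE, from the edgeR fit and not from the spread over the 3 pairs). The single pairs had 1.32, 1.19 and 1.20, and the adjusted p of LHB1B1 in edgeR was 0.533. Among members it was also the only antenna gene whose RPF change passed on its own (0.98 ± 0.19, SE, edgeR adjusted p = 0.0117).

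CAB2 and CAB3 encode the same subunit and lie close together on chromosome 1, at 10474784 to 10475959 and 10472280 to 10473299. CAB2 had 1347, 569 and 984 CPM in RPF under LL and 2980.2, 743 and 1731 under HL. Its total RNA was 2011, 1763 and 2819 CPM under LL and 1226, 1528 and 2180 under HL. Each pair again had more RPF and less total RNA in high light, although the groups overlapped, and pair 1 moved most: the shift was 1.22 ± 0.28 (SE), or 1.86, 0.59 and 1.19 by pair. CAB3 had 1309.8, 996.5 and 1541 CPM in RPF under LL and 2948, 1432 and 2882 under HL, with total RNA of 2701, 2361 and 2937 and then 1975, 2196.5 and 2726 CPM. Its shift of 1.09 ± 0.28 (SE) held 1.62, 0.63 and 1.01 in the pairs, so pair 2 was the smallest for both genes. CAB1 next to them, the antenna gene with the most RPF, had a shift of 1.05 ± 0.32 (SE; 1.52, 0.77 and 0.86).

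**Figure D1:**
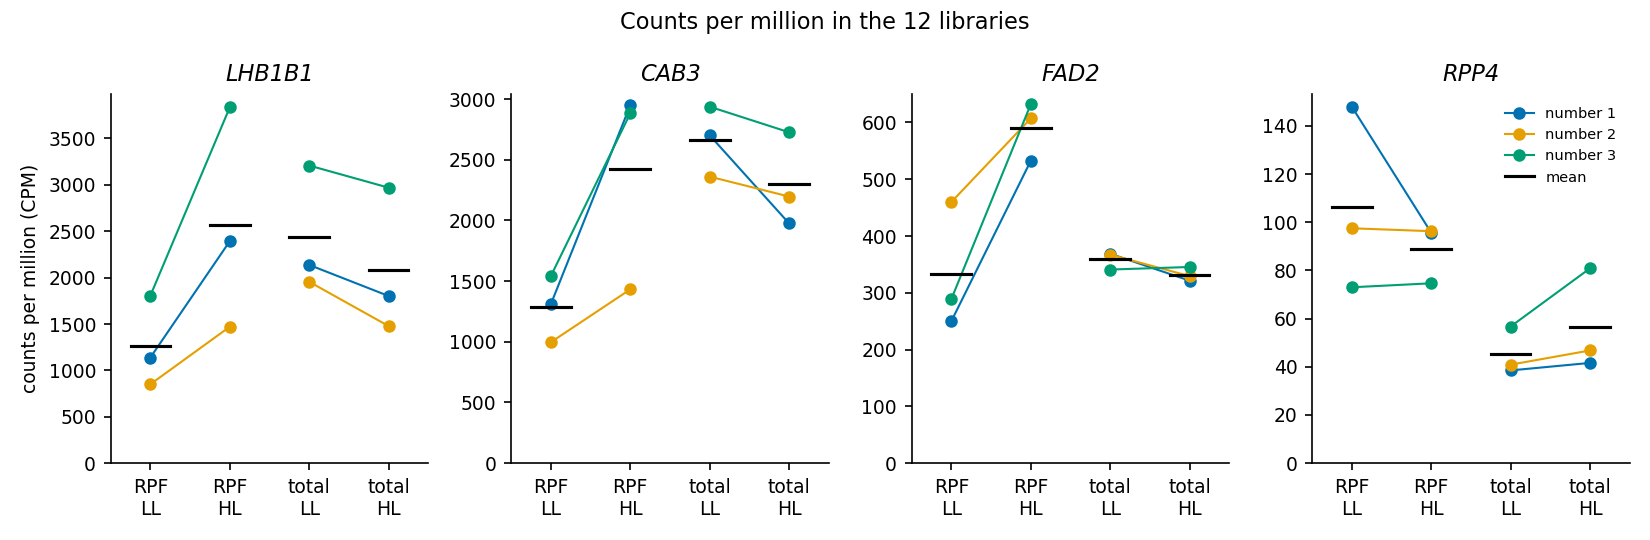
CPM (linear axis from 0) of LHB1B1, CAB3, FAD2 and RPP4 in the 12 libraries, with lines joining low and high light of the same number and black bars for the mean of 3 libraries. The RPF of LHB1B1, CAB3 and FAD2 is higher in high light in each of the 3 pairs while their total RNA is nearly level or lower. RPP4 has shifts of -0.74, -0.21 and -0.48. Its RPF is lower in pair 1 and nearly level in pairs 2 and 3 (log2 changes of -0.63, -0.02 and 0.03), and its total RNA is higher in each pair.

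The other antenna genes followed in smaller steps. LHB1B2, another Lhcb1 gene, had a shift of 0.75 ± 0.28 (SE), and LHCB3, a further subunit of LHCII, 0.81 ± 0.28 (SE). The Lhcb2 genes of LHCII were lower in the order, from 0.19 for LHCB2.2 to 0.34 for LHCB2.3. Of the minor antenna proteins that join LHCII to the photosystem II core, LHCB5 had 0.72 ± 0.28 (SE), and LHCB4.1, LHCB4.2 and LHCB6 had 0.43, 0.27 and 0.26. In the photosystem I antenna LHCA4 stood out with 0.86 ± 0.28 (SE; 1.17, 0.57 and 0.82), while LHCA1, LHCA3 and LHCA2 had 0.42, 0.39 and 0.34. Lhca5, a photosystem I antenna protein of low abundance, was the exception to the shared sign, with 0.01 ± 0.25 (SE) and single pairs at 0.12, -0.68 and 0.59. Of the 18, 8 had a higher shift at an unadjusted p under 0.05 in edgeR, against 2.4% of all tested genes. All 8 were higher in all 3 pairs.

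**Figure D2:**
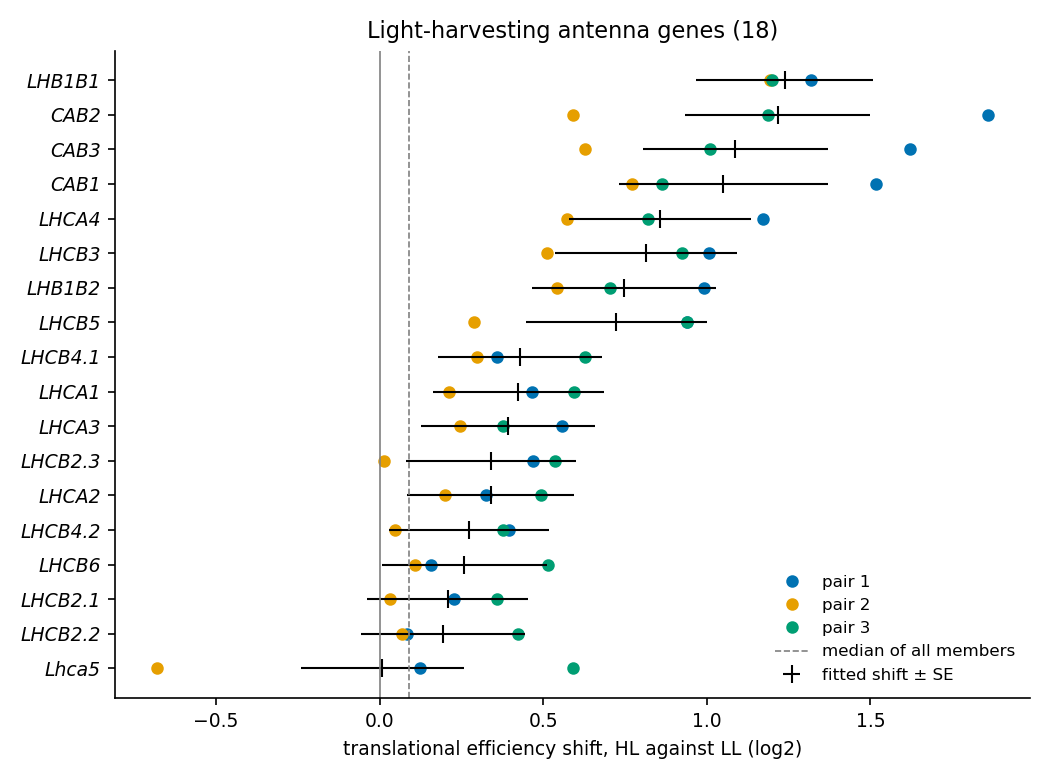
Shift of the 18 antenna members on the log2 scale, with 1 coloured point per pair, a black tick and bar for the fitted shift ± SE, and a dashed line at the median of all members (0.09). In 17 of 18 genes the 3 points lie above 0, and pair 2 is the lowest point in all 18.

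Antenna genes are short and abundant, and the fitted shift differed with both features, though for span the pairs disagreed. The median span of the antenna genes was 1252 bases, against 2767 for all members. Over 5 groups of equal size by gene span, the median shift was 0.13, 0.14, 0.11, 0.08 and 0.01 from the shortest to the longest genes. By pair the shortest group had 0.30, -0.08 and 0.14 and the longest -0.06, 0.08 and 0.05, so pair 2 ran the other way. Over bands of the lowest count it was 0.08 for the 322 members with 50 to 59 counts and 0.23 for the 81 with 500 or more. Genes just outside the rule, the 529 with a lowest count of 40 to 49, had a median of 0.05. The part of span and abundance in the antenna result was not tested.

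Outside the antenna, FAD2 and AT2G14910 completed the 5 members with the smallest p on the higher side. FAD2, the oleate desaturase of the endoplasmic reticulum (chromosome 3, 3860285 to 3863050), had 249.9, 459.8 and 289 CPM in RPF under LL and 532, 607 and 632 under HL, groups that did not overlap. Its total RNA was 369, 367 and 341 CPM under LL and 321, 329 and 345 under HL. FAD2 RPF rose by 0.87 ± 0.18 (SE, edgeR adjusted p = 0.0182), and the shift was 0.98 ± 0.25 (SE; 1.29, 0.56 and 1.11). AT2G14910, which has no name in the reference, went from 38.0, 56.2 and 60.9 CPM in RPF to 97.8, 64.2 and 118, with total RNA of 72.7, 80.8 and 77.6 and then 78.8, 61.1 and 73.3 CPM. Its RPF groups did not overlap, and its shift was 0.99 ± 0.26 (SE; 1.24, 0.59 and 1.03).

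Further members on the higher side were chosen after their values were seen. PEX13, a peroxisomal import factor, had a shift of 0.82 (0.63, 0.79 and 1.06 by pair), and ACR9, an ACT-domain protein, 0.89 ± 0.24 (SE). STN8, the thylakoid kinase that phosphorylates the photosystem II core, had 0.68 (0.99, 0.34 and 0.71). ATNTT2, an ATP/ADP carrier of the plastid envelope, had 0.70 (0.85, 0.42 and 0.87). FBA5, a fructose-bisphosphate aldolase, had 0.67 (0.69, 0.48 and 0.84), and the sulfate transporter gene SULTR2;1 had 0.72 (0.62, 0.81 and 0.58). All 6 were higher in all 3 pairs, and none of them passed the adjusted threshold in edgeR.

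Genes of carbon fixation had the second highest median. The Calvin-Benson cycle list had 22 members of 24, with a median shift of 0.28 (0.32, 0.07 and 0.42 by pair). In all 3 pairs 11 were higher and 0 lower, or 8 and 1 when centred on the members. RPE, the ribulose-phosphate epimerase, had 0.47 ± 0.23 (SE; 0.11, 0.32 and 0.99). The Rubisco small subunit genes RBCS2B and RBCS1A had 0.45 and 0.37, but both were negative in pair 2 (-0.21 and -0.12). RBCS1A, the most abundant of the list in RPF, had 3158, 2473 and 3030.4 CPM in RPF under LL and 4842, 2760 and 3582 under HL. Its groups overlapped, and total RNA lay between 1840 and 2571 CPM in all 6 libraries. The small subunit copies share long stretches of sequence, so their counts may be split between them.

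Photorespiration, the salvage of the product of Rubisco's oxygenase reaction, had 16 members of 20 with a median shift of 0.24. In all 3 pairs 9 were higher and 1 lower, or 4 and 1 when centred on the members. The glyoxylate aminotransferase gene GGT1 (AT1G23310) had 0.52 ± 0.24 (SE; 0.41, 0.28 and 0.87), and the glycolate oxidase gene GOX1 had 0.37 ± 0.22 (SE; 0.32, 0.33 and 0.47). GLDP1, a subunit of glycine decarboxylase, had 0.19 (0.54, -0.22 and 0.23).

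Subunits of the photosystems, electron transport and the ATP synthase were less uniform over pairs. Of 41 listed genes 36 were members, 33 with a positive shift. The median was 0.17, but by pair it was 0.33, -0.12 and 0.36, so pair 2 had the opposite sign. In all 3 pairs 6 members were higher and 0 lower. Centred on the members, 4 were higher (11.1%, against 14.0% of all members) and 0 lower. Without the total RNA library of number 3 in low or in high light the median was 0.07. PSI-P, a thylakoid membrane protein, had 0.50 ± 0.23 (SE; 0.61, 0.13 and 0.77), and PDE334, a subunit of the plastid ATP synthase, 0.43 (0.91, 0.01 and 0.36). PSBO1, the manganese-stabilising protein of photosystem II, had 0.31 (0.43, 0.25 and 0.25).

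Tetrapyrrole and chlorophyll synthesis had 21 members of 29, with a median shift of 0.18 (0.22, 0.04 and 0.35 by pair). In all 3 pairs 10 were higher, or 6 when centred on the members. The median RPF change of the list was -0.01 and its median change in total RNA -0.15. The shift thus came with little change in RPF, as it did over all members (-0.01 and -0.09). GSA1, a glutamate-semialdehyde aminotransferase, had 0.36 (0.24, 0.29 and 0.57), as did AT1G74470 with 0.36 (0.25, 0.48 and 0.37). GUN5, the large subunit of magnesium chelatase, had 0.18 (0.21, 0.03 and 0.31).

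Nuclear genes for the plastid's own ribosome had a nearly uniform sign but a disagreeing pair. Of 39 listed genes 38 were members, 37 of them with a positive shift and a median of 0.20. By pair the medians were 0.30, -0.09 and 0.37. In all 3 pairs 11 members were higher, or 5 when centred on the members (13.2%, against 14.0% of all members). Without the total RNA library of number 3 in low or in high light the median was 0.08. Outside the list, the ribosomal protein S16 gene SSR16 rose in RPF (0.77 ± 0.17, SE, edgeR adjusted p = 0.0398). PRPS20, the plastid ribosomal protein S20, had a shift of 0.50 ± 0.21 (SE; 0.64, 0.21 and 0.66). AT5G65220, which the list holds by its identifier, had 0.52 (0.70, 0.50 and 0.37), and AT5G24490, its member with the most RPF, 0.24 (0.10, 0.06 and 0.58).

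Plastid gene expression, import and proteases, a list of proteins that make, bring in or degrade plastid proteins, had 28 members of 36. Their median shift was 0.18, and it was similar in the pairs, at 0.19, 0.12 and 0.16. Of these members 11 were higher and 1 lower in all 3 pairs. Centred on the members, 4 were higher (14.3%, against 14.0% of all members) and 1 lower. The median change of the list was -0.07 in RPF and -0.24 in total RNA. CP29, an RNA-binding protein of the chloroplast, had 0.49 (0.44, 0.34 and 0.69), and CRB, another plastid RNA-binding protein, 0.35 (0.40, -0.01 and 0.66). CLPC1, an import and protease chaperone and the most abundant of the list in RPF, had 0.04 (-0.25, 0.18 and 0.18).

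Cytosolic ribosomal proteins leaned higher mainly through pair 1. The small subunit list had 33 members of 88 with a median shift of 0.25, made of 0.63, -0.08 and 0.06 in the pairs; 6 were higher in all 3. The large subunit list had 40 members of 125 with a median of 0.19 (0.40, 0.03 and 0.07) and 11 higher and 1 lower in all 3. Centred on the members, 3 (9.09%) and 8 (20%) were higher in all 3 pairs, against 14.0% of all members, and 0 and 5 were lower. Without number 1 the medians were 0.04 and 0.07. RPF was higher in 32 of 33 and 39 of 40 members, with medians of 0.33 and 0.31, and total RNA was higher too, with medians of 0.14 and 0.14. Most loci of the small subunit list were held by identifier, and paralogous copies may share reads.

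Among the named genes of these lists, RPS18C had 0.66 ± 0.25 (SE; 1.29, 0.64 and -0.04) and RPL34 0.52 ± 0.23 (SE; 0.72, 0.65 and 0.19). AT3G09200 had 0.64 (0.88, 0.53 and 0.49), and AT5G52650 had 0.49 (0.71, -0.03 and 0.73). The most abundant in RPF, AT5G20290 and RP1 (AT1G43170), had 0.09 and 0.22 and were negative in pair 3.

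Cytosolic translation factors had 24 members of 50 with a median shift of 0.16 (0.33, 0.15 and -0.08 by pair). In all 3 pairs 9 were higher and 1 lower, or 6 and 3 when centred on the members. Without number 1 the median was 0.03. PAB2, a poly(A)-binding protein, had 0.59 ± 0.22 (SE; 0.49, 0.44 and 0.84), and eEF-1Bb1, an exchange factor for elongation factor 1, 0.43 (0.78, 0.33 and 0.15). LOS1, elongation factor 2, had 0.14 (0.35, 0.20 and -0.13).

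**Figure D3:**
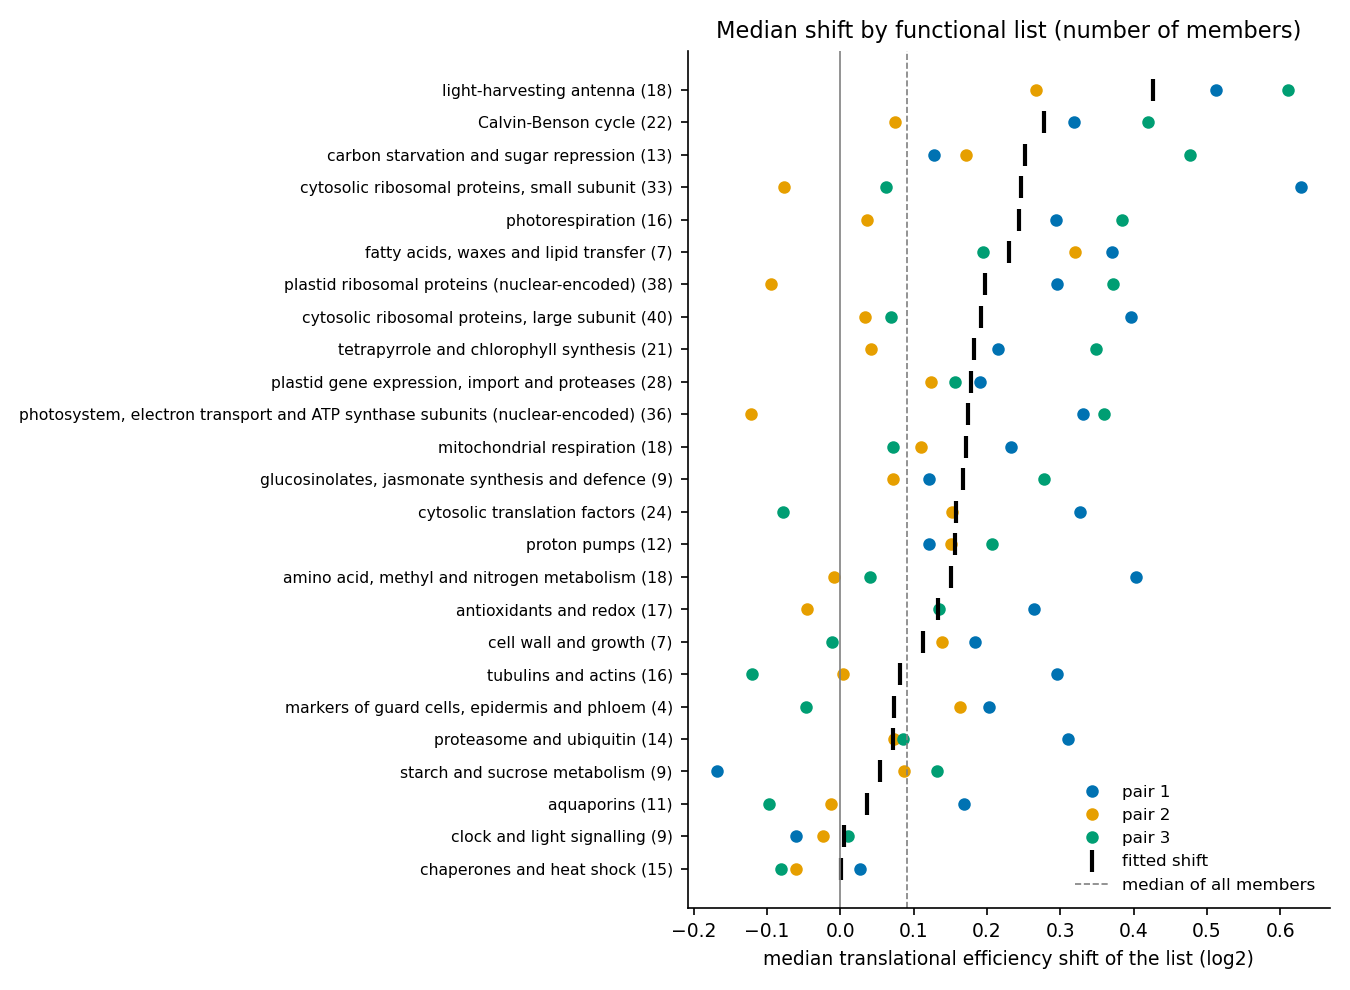
Median shift of the functional lists with at least 4 members, on the log2 scale, with the number of members in brackets, 1 coloured point per pair and a black tick for the median of the fitted shifts. The antenna is highest in the fit (0.43), chaperones and clock genes are lowest (0.00 each), and the small ribosomal subunit spans from -0.08 to 0.63 over the pairs.

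Lists of general metabolism lay between the median of all members and 0.25. Mitochondrial respiration, with 18 members of 36, had 0.17 and 9 members higher and 0 lower in all 3 pairs (3 and 3 when centred). Its mitochondrial carrier gene AAC1 had 0.33 (0.62, 0.10 and 0.28), its porin gene VDAC1 0.33 (0.87, -0.17 and 0.27) and the aconitase gene ACO1 (AT4G35830) 0.12. Proton pumps, all 12 of 12 members, had 0.16 with 7 higher and 0 lower in all 3 pairs (3 and 0 when centred). The vacuolar ATPase subunit gene VAB2 had 0.53 ± 0.22 (SE; 0.76, 0.44 and 0.43), VAB1 0.27 and the vacuolar pyrophosphatase gene AVP1 0.13.

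Amino acid, methyl and nitrogen metabolism, with 18 members of 24, had 0.15, again mostly through pair 1 (0.40, -0.01 and 0.04), and -0.01 without the total RNA library of number 1 in either light. The S-adenosylmethionine synthase genes SAM1 and SAM-2 had 0.47 and 0.36, and the methionine synthase gene ATMS1 0.13. Antioxidants and redox genes, 17 of 25, had 0.13; the plastid superoxide dismutase gene CSD2 had 0.52 (0.93, 0.01 and 0.59), 2-Cys Prx B, a plastid peroxiredoxin, 0.37 and the catalase gene CAT3 (AT1G20620) 0.23. Fatty acid, wax and lipid transfer genes, 7 of 11, had 0.23, with SSI2, the stearoyl-ACP desaturase, at 0.37, MOD1, an enoyl-ACP reductase, at 0.33 and the acetyl-CoA carboxylase subunit gene CAC3 at 0.16. Glucosinolate, jasmonate and defence genes, 9 of 27, had 0.17, with the myrosinase genes TGG2 and TGG1 at 0.56 and 0.17 and CYP83A1, of glucosinolate synthesis, at 0.40.

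The other lists were near or below the median of all members. Tubulins and actins, with 16 members of 18, had 0.08, though the actin genes ACT2 and ACT8 had 0.60 ± 0.24 (SE; 1.00, 0.25 and 0.55) and 0.39. Proteasome and ubiquitin genes, 14 of 35, had 0.07, with UBQ3 at 0.53 (1.27, 0.24 and 0.06), CDC48 at 0.34 and UBQ10 at 0.21. Starch and sucrose metabolism, 9 of 13, had 0.05, with UGP1 at 0.12 and SEX1, the glucan water dikinase, at -0.13. Aquaporins, 11 of 17, had 0.04, with TIP2 at 0.07, PIP1;4 at 0.11 and PIP1;5 at -0.14. Cell wall and growth genes, 7 of 12, had 0.11, with EXL2 at 0.23 and the cellulose synthase genes CESA1 and CEV1 at 0.12 and 0.11. The 4 members among epidermal and phloem markers had 0.07, with the wax synthesis gene KCS6 at 0.27 and KCS10 at 0.12.

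A different pattern was seen in some members whose transcripts themselves changed within 10 min: RPF was called the same way. In edgeR, 10 members rose and 13 fell in total RNA (0.573% and 0.745% of members, against 0.767% and 0.438% of all tested genes). In RPF, 12 rose and 4 fell (0.688% and 0.229%, against 0.477% and 0.149%). Of these, 7 rose and 4 fell in both. The shift was negative in 8 of the 10 that rose in total RNA (median -0.32) and positive in 11 of the 13 that fell (median 0.27). The shift contains the total RNA libraries used for these calls, so its sign in such genes is not an independent result.

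The largest rise among members was in a chaperone gene. HSP81-2, a cytosolic HSP90, had 156, 145 and 149 CPM in RPF under LL and 629, 530.0 and 571 under HL; its total RNA went from 89.0, 118 and 94.7 to 368, 439 and 683 CPM. Neither pair of groups overlapped, and RPF rose by 1.94 ± 0.19 and total RNA by 2.26 ± 0.19 (SE; edgeR adjusted p = 3e-06 and 6.3e-08). The shift was -0.32 ± 0.26 (SE), with -0.03, -0.02 and -0.91 in the pairs, so it rested on pair 3.

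AT3G09440, which the chaperone list holds by its identifier, and HSP81-3, another cytosolic HSP90, rose by 1.45 and 1.31 in RPF. Their total RNA rose by 1.84 and 1.62, and the shifts were -0.39 and -0.31. By pair the shifts were 0.04, -0.20 and -1.01 for AT3G09440 and 0.18, -0.27 and -0.84 for HSP81-3, lowest in pair 3 for both. J3, a DnaJ co-chaperone, rose by 0.99 and 0.89 with a shift of 0.09. HSC70-1, the constitutive cytosolic HSP70 and the most abundant of the list in RPF, had a shift of 0.48 (0.74, 0.53 and 0.19), and CPN20, a plastid co-chaperonin, 0.36. Over the 15 members of the 39 listed genes the median shift was 0.00, with 4 higher and 4 lower in all 3 pairs. Centred on the members, 3 were higher and 6 lower (20% and 40%, against 14.0% and 14.1% of all members). The other genes of the list were not members.

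**Figure D4:**
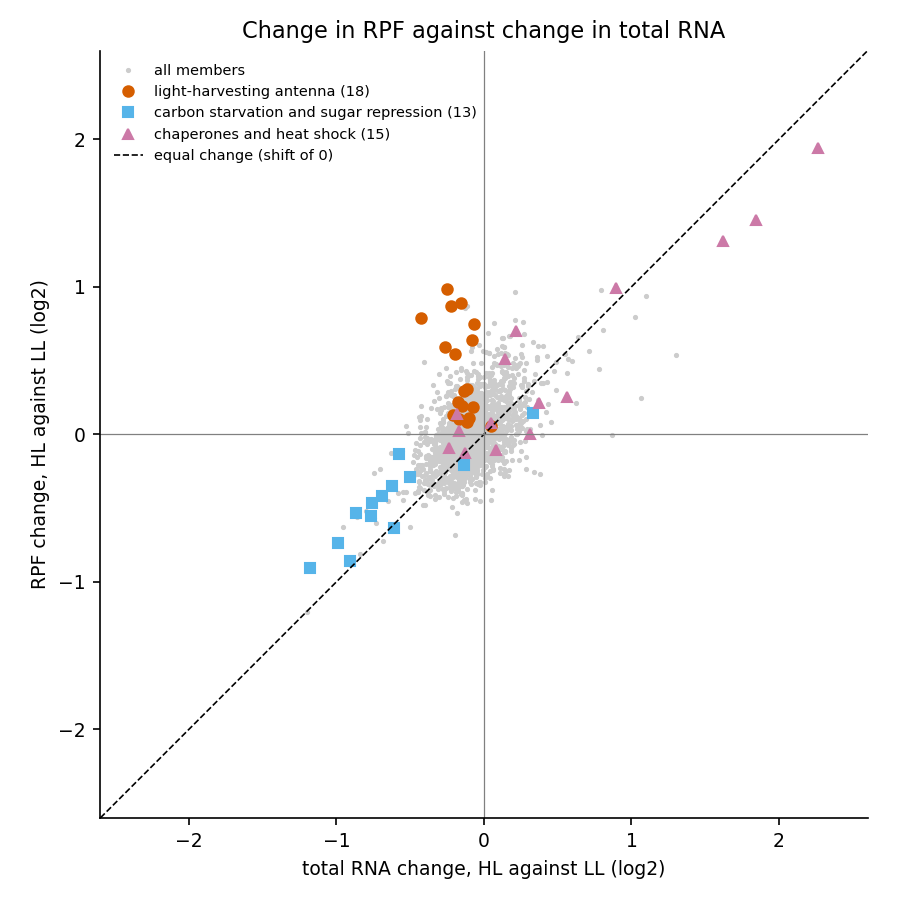
Change in RPF (vertical) against change in total RNA (horizontal), high against low light on the log2 scale, for the 1745 members, with antenna, carbon starvation and chaperone genes marked; the dashed line marks equal change. Antenna genes lie above the line at total RNA changes near or below 0, and carbon starvation genes lie mostly below 0 on both axes, with median changes of -0.69 in total RNA and -0.47 in RPF.

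The glutathione transferase genes GSTU5 and GSTF8 and a transcription factor gene also rose in both measurements. GSTU5 rose by 1.46 in RPF and 1.85 in total RNA, with a shift of -0.39 (0.07, -0.28 and -1.07), and GSTF8 rose by 0.98 and 0.79, with a shift of 0.19. MYBR1, a stress-related MYB factor, rose by 0.79 and 1.02, with a shift of -0.23. Of the early stress, calcium and touch genes only MYBR1 and the kinase gene MPK3 (shift -0.07) had enough counts, 2 of 11. Transcripts with conserved upstream reading frames likewise had 2 members of 15, VTC2 with 0.19 (1.19, -0.30 and -0.19) and SIP3 with -0.04.

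Carbon starvation genes, which plants express when sugar is short, were lower in both measurements, and by less in RPF. Of 22 listed genes 13 were members, with median changes of -0.69 in total RNA and -0.47 in RPF. In edgeR 4 were called lower in total RNA and 2 in RPF, against 0.438% and 0.149% of all tested genes. The median shift was 0.25 (0.13, 0.17 and 0.48), with 7 higher and 0 lower in all 3 pairs (4 and 1 when centred). It was 0.02 without the total RNA library of number 1 in either light. J8, a chloroplast DnaJ protein, had 67.2, 69.3 and 118 CPM in total RNA under LL and 39.3, 45.5 and 51.1 under HL, and 76.8, 47.0 and 76.9 and then 45.5, 35.6 and 58.4 CPM in RPF. Total RNA of J8 fell by 0.87 ± 0.15 (SE, edgeR adjusted p = 0.00181) in groups that did not overlap, while RPF had -0.53 ± 0.18 (SE) and the shift was 0.33 (0.02, 0.21 and 0.81).

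TPS10 (AT1G60140), of the trehalose phosphate synthase family, had the steadiest shift of the named starvation genes, 0.44 ± 0.27 (SE; 0.43, 0.47 and 0.52). Total RNA of AT3G15450 fell by 1.18 and its RPF fell by 0.91, with a shift of 0.27. Total RNA of AT3G59940 fell by 0.91 and its RPF fell by 0.86, with a shift of 0.05. AT2G33830, the most abundant of the list in RPF, had -0.07. ATCTH, a zinc finger protein outside the lists, had -1.20 in total RNA and -1.21 in RPF, both past the threshold, with a shift of -0.01. Among 9 clock and light signalling members of 20 the median shift was 0.00; the clock gene PRR5 fell in both, with -0.84 in total RNA and -0.81 in RPF (shift 0.03), and the photoreceptor genes PHYB, CRY2 and PHOT1 had shifts of 0.16, 0.14 and -0.14.

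Members with RPF up and total RNA down in all 3 pairs numbered 42, of which 6 were antenna genes, and the reverse was seen in 6 (2.41% and 0.344% of members, against 1.27% and 1.25% of all tested genes). The unnamed genes AT1G51200 and AT4G02920 rose in RPF without a call in total RNA: AT1G51200 had 0.97 in RPF and a shift of 0.76 (1.29, 0.38 and 0.53), and AT4G02920 had 0.76 and 0.50.

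On the lower side the 5 members with the smallest p were AT4G05631, AT1G58602, AT2G35750, RPP4 and AT2G31141, and 3 of them were lower in all 3 pairs. RPP4, a nucleotide-binding leucine-rich repeat receptor for downy mildew (chromosome 4, 9488466 to 9495816), had 148, 97.5 and 73.0 CPM in RPF under LL and 95.7, 96.3 and 74.7 under HL. Its total RNA was 38.5, 40.9 and 56.7 CPM and then 41.6, 46.8 and 80.9. Groups overlapped in both, and the shift was -0.52 ± 0.23 (SE; -0.74, -0.21 and -0.48).

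AT1G58602 had 347, 196 and 110.2 CPM in RPF under LL and 231, 167 and 121 under HL, with total RNA of 92.9, 73.8 and 81.3 and then 117, 76.6 and 126 CPM. Its shift was -0.60 ± 0.24 (SE; -0.92, -0.29 and -0.50). AT2G35750 had -0.87 ± 0.38 (SE; -0.60, -0.61 and -1.45), the lowest of all members, while AT4G05631 had -0.65 (-1.10, 0.09 and -1.05). AT2G31141 had -0.81, but the pairs were 0.12, -0.02 and -2.50: its total RNA went from 102.5 to 432 CPM in pair 3, and from 816.5 to 1193 and from 338 to 518 in pairs 1 and 2.

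Single pairs differed from each other more than the fitted medians show. The SD of the shift over members was 0.41, 0.26 and 0.39 in pairs 1, 2 and 3, and the median error expected from counting alone was 0.20, 0.21 and 0.22. Across the 1745 members the shifts of 2 pairs correlated at 0.09 (pairs 1 and 2), 0.05 (1 and 3) and 0.08 (2 and 3; Pearson), and at 0.06, 0.02 and 0.06 without the antenna. These correlations are across genes, which are not independent replicates, and the pairs share no library but share the scaling and the genes. Libraries of the same kind and number were alike: within RPF, low and high light of a number correlated at 0.58 to 0.72 after removal of group means, and within total RNA at 0.65 to 0.81. Between RPF and total RNA of a number the correlation was weaker, at 0.07 to 0.48.

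Gene span, which here covers introns and untranslated regions as counted by the authors, ran with the shift differently in each pair. Spearman's correlation of the shift with span was -0.38 in pair 1, 0.18 in pair 2 and -0.05 in pair 3 across 1745 members. For RPF changes it was -0.52, -0.15 and -0.28, and for total RNA changes -0.15, -0.42 and -0.20, negative in both kinds of library and in all 3 pairs. Its part in the differences between lists of short and long genes was not tested.

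**Figure D5:**
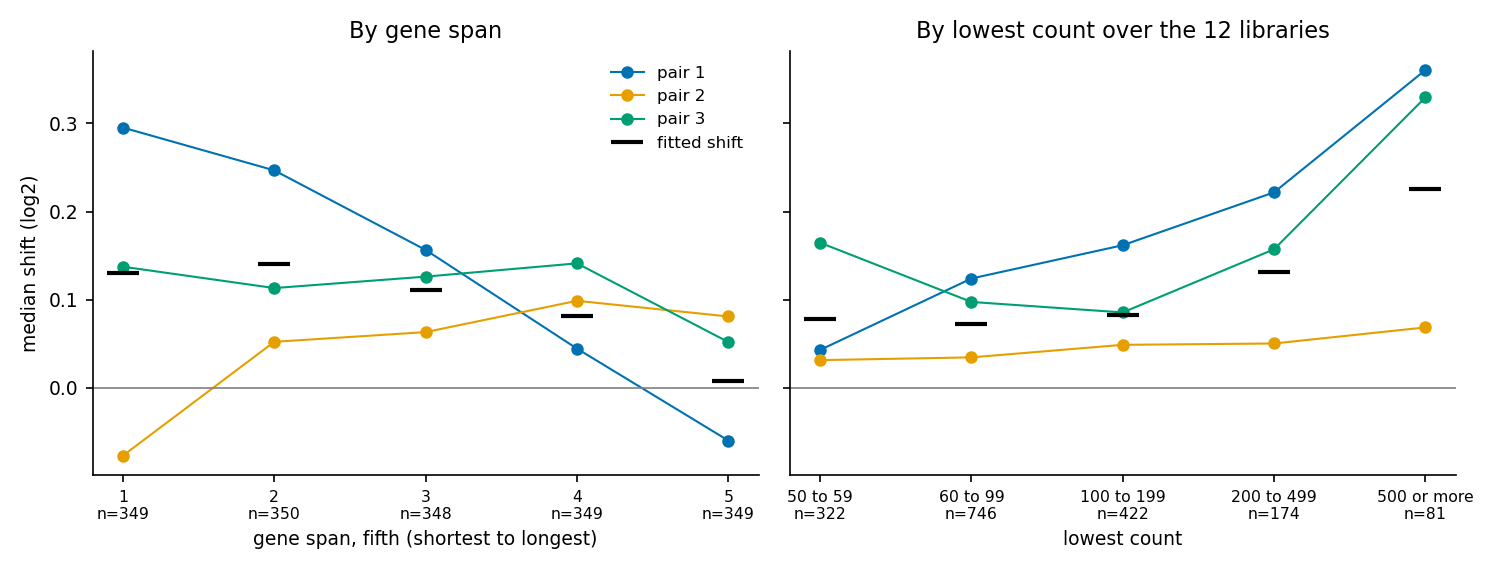
Median shift (log2) over 5 groups of equal size by gene span (left) and over bands of the lowest count among the 12 libraries (right), with 1 coloured line per pair and a black bar for the fitted shift. Pair 1 goes from 0.30 in the shortest to -0.06 in the longest genes, whereas pair 2 goes from -0.08 to 0.08, and in pair 1 the median is higher at higher counts, up to 0.36.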

How the data were processed

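The deposited values were raw counts of reads per gene, 1 file per library, made by the authors with featureCounts 1.5.0-p1 per the file headers. Counting spanned each gene from start to end, with introns and untranslated regions. Reads were aligned with Bowtie2 for RPF and with subjunc of the Subread package for total RNA, with a strand setting of 1 and 2, per the file headers. Per the submitters' processing notes, the genome was TAIR10 and the tools were Subread 1.4.5, Bowtie2 2.2.9, cutadapt 1.9.1 and FastQC 0.11.5. Names and types came from a RefSeq table (TAIR10.1), in which 28009 locus tags were found and 123 of 133 plastid genes had identical positions; 533 members had no name there, and 499 nuclear genes without a type were left out.

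All protein-coding genes past filterByExpr (12782) were fitted with edgeR 4.0.16 (R 4.3.3; quasi-likelihood, TMM within each kind of library). The replicate number within each kind formed 6 blocks, which left 4 residual degrees of freedom, and p-values were Benjamini-Hochberg adjusted over all tested genes at 0.05. The fit was tested on simulated data. The SE of each fitted value was its size divided by the square root of the quasi-likelihood F statistic, not the spread over pairs. Pair shifts came from log2 CPM with a prior count of 2. Replicate libraries differed beyond sampling noise (chi-square per degree of freedom 12.1 to 70.7). Libraries carry the numbers 1 to 3 in each group's labels, and the headers' alignment names share an experiment name by number. Low- and high-light libraries of a number correlated at 0.58 or more within each kind. Numbers were used as pairs for these reasons. RPF and total RNA libraries of a number correlated at only 0.07 to 0.48, lowest for number 2 in high light. Between RPF and total RNA of different numbers the correlation reached 0.08.

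Alternatives were DESeq2 1.42.0 and limma 3.58.1 (voom, and on the 3 paired shifts), other scalings, filters, count minima of 20 and 100, fits without the block, and leaving out libraries. Lists with under 3 members were described by their members. Named genes were, in each direction, up to 5 members by smallest p, and from each list 2 by smallest p and the one with the most RPF. Genes outside this rule were picked with their values in view, among them LHCA4, LHCB3, LHB1B2, LHCB5, SSR16, the other antenna genes and the genes called in RPF or total RNA. Members and lists were chosen with earlier results of these data known. Sequences were not used here.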

Additional observations from a re-analysis of the deposited data

How the results depend on the processing

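Called members depended on the tool and the gene set. Against 0 in the reported fit, 3 members were called higher by DESeq2 and 3 by limma-voom (LHB1B1, CAB2 and CAB3 in both), 2 without a filter on low counts and 2 with nuclear genes only (LHB1B1 and CAB2), and 1 with members only (LHB1B1). LHB1B1 was also the 1 member called without the total RNA library of number 3 in low or in high light (0 to 1 over all libraries or numbers left out). Its adjusted p was 0.533 as reported, 0.000387 in DESeq2 and 0.00639 in limma-voom. Without the replicate block 0 members were called in either direction, as was the case with the block by number alone and with limma on the 3 paired shifts; the members' median shift without the replicate block was 0.10.

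With members only in the fit the median shift was 0.00242 for all members, -0.0909 for chaperones, 0.0882 for plastid gene expression, 0.0808 for mitochondrial respiration, 0.0634 for proton pumps and -0.0874 for clock genes, and the sign turned for TIP2 (-0.0216), CLPC1 (-0.0580), AT3G59940 (-0.0467) and PRR5 (-0.0555). The fit then scales on the members themselves. In it 248 members were higher and 232 lower in all 3 pairs (442 and 113 as reported), and with each pair centred on the members 244 and 246. With a minimum of 20 counts the chaperone median was -0.161, and with 100 it was -0.0798, beside 0.0522 for mitochondrial respiration; the lists then hold other members. Shifts near 0 also turned for ATCTH (0.00220 with DESeq2's size factors, 0.0113 in DESeq2, 0.00398 with limma on paired shifts) and PRR5 (-0.00173 with limma on paired shifts, -0.00140 with the block by number alone); the cause was not tested.

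Leaving out 1 library or 1 number moved some list medians beyond their spread over the pairs: they ranged from -0.0965 to 0.0337 for chaperones and heat shock, 0.0741 to 0.295 for plastid gene expression, 0.0806 to 0.302 for antioxidants and redox, 0.0183 to 0.472 for carbon starvation, 0.0798 to 0.209 for mitochondrial respiration, 0.0926 to 0.206 for proton pumps, -0.0462 to 0.423 for glucosinolates and defence, -0.0107 to 0.195 for cell wall and growth, 0.13 to 0.337 for fatty acids, -0.0929 to 0.0876 for clock and light signalling and -0.0219 to 0.226 for epidermal and phloem markers. The shift of single genes turned sign in some of these fits, with ranges of -0.103 to 0.285 for CRY2, -0.0169 to 0.286 for LOS1, -0.212 to 0.238 for ATCTH, -0.0744 to 0.238 for KCS10, -1.26 to 0.0598 for AT2G31141, -0.177 to 0.0996 for AT2G33830, -0.0911 to 0.488 for GSTF8, -0.0791 to 0.468 for UGP1, -0.152 to 0.216 for TIP2, -0.131 to 0.322 for J3, -0.181 to 0.0293 for MPK3, -0.103 to 0.197 for AT3G59940, -0.24 to 0.00403 for PIP1;5, -0.259 to 0.471 for VTC2, -0.164 to 0.0733 for SIP3, -0.0583 to 0.239 for AT4G35830, -0.0659 to 0.278 for ATMS1, -0.0177 to 0.243 for AT5G20290, -0.112 to 0.179 for PRR5, -0.0462 to 1.05 for TGG2, -0.181 to 0.439 for TGG1, -0.0809 to 0.177 for CLPC1 and -0.556 to 0.0271 for HSP81-3. Within their spread over the pairs, other medians still ranged widely: 0.0378 to 0.43 for the small and 0.068 to 0.258 for the large cytosolic ribosomal subunit, 0.077 to 0.376 for plastid ribosomal proteins, 0.0689 to 0.312 for photosystem subunits, 0.164 to 0.389 for photorespiration, 0.186 to 0.355 for the Calvin-Benson cycle, 0.103 to 0.293 for tetrapyrrole synthesis, 0.0322 to 0.263 for translation factors, 0.0297 to 0.155 for proteasome genes, -0.00537 to 0.225 for amino acid metabolism, -0.0543 to 0.192 for tubulins and actins, -0.0906 to 0.121 for aquaporins and -0.0217 to 0.0928 for starch and sucrose; the last 4 turned sign. The antenna median ranged from 0.349 to 0.515. The median over all members ranged from 0.0404 to 0.143. Depth limits single genes: the median SE of a member's shift was 0.23. Scaling within each kind of library hides any change common to all genes. Counts cover introns and untranslated regions, so RPF outside reading frames is included.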

Other observations

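A few further members with negative shifts were chosen after their values were seen, and no list holds them; their values say nothing of other genes of their families. RPP5, a receptor of the same family, had a shift of -0.42 ± 0.21 (SE; -0.33, -0.45 and -0.52 by pair) and RLM3, a TIR-domain protein of fungal resistance, -0.41 ± 0.22 (SE; -0.81, -0.16 and -0.30). RPP5 had 192, 107.5 and 116 CPM in RPF under LL and 156, 75.9 and 77.5 under HL, lower in all 3 pairs with overlapping groups. Its total RNA was 84.7, 74.4 and 108 CPM under LL and 86.1, 72.0 and 104 under HL, nearly level. The receptor kinase gene FEI1 had -0.43 (-0.54, -0.18 and -0.58). RPP4 and RPP5 lie in a cluster of similar genes and may share reads, so the values of single copies are uncertain.

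The next 4 genes were chosen in the same way. The dehydrin gene ERD14 had -0.40 ± 0.25 (SE; -0.87, -0.11 and -0.23), the small membrane protein gene RCI2A -0.37 ± 0.22 (SE; -0.23, -0.31 and -0.63) and the lipocalin gene TIL -0.34 ± 0.22 (SE; -0.31, -0.15 and -0.56). AT5G66400 had -0.76 ± 0.47 (SE; -0.81, -0.10 and -1.51), but its shift was between -1.22 and -0.02 when 1 library or 1 number was left out, and nearest to 0 without the total RNA library of number 3 in either light. All 4 shifts were lower in all 3 pairs, and none passed the adjusted threshold in edgeR. Only TIL rose in total RNA past it (0.78 ± 0.15, SE, edgeR adjusted p = 0.00451). ERD14 had 360.4, 231 and 334 CPM in RPF under LL and 360.3, 253 and 303.5 under HL, while its total RNA went from 161, 325 and 273 to 295, 383 and 291 CPM.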
